A study of Mus musculus with 15 samples.

Results

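The 10 genes described here encode the subunits of NF-kB and proteins that restrain or modulate it: Nfkb1, Nfkb2, Rel, Rela, Relb, Nfkbia, Nfkbib, Nfkbie, Nfkbiz and Tnfaip3. They were taken by name from a table of raw read counts for 37991 genes, and all 10 passed the filter on low counts. The libraries were from whole liver of C57BL/6 mice, which the study's methods give as female, with 5 young wild-type mice (young WT, 90 days), 5 old wild-type mice (old WT, 600 days) and 5 old S6K1 knockout mice (old KO, 600 days). S6K1 is ribosomal S6 kinase 1, a growth-promoting kinase downstream of mTOR, and the knockout was in every cell of the animal and not in a chosen cell type. No young knockout was sequenced, so genotype was compared at 600 days alone. Old WT against young WT asked how age changes these genes, and old KO against old WT asked how loss of S6K1 changes them in old liver.

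NF-kB is a family of paired transcription factors built from RELA (p65), REL (c-Rel), RELB, p50 (made from NFKB1) and p52 (made from NFKB2). In resting cells the pairs are held in the cytoplasm by inhibitors of the IkB family, of which NFKBIA, NFKBIB and NFKBIE are the classical members. Signals from cytokine and pattern-recognition receptors activate the IKK kinases, which mark the inhibitors for destruction, and a slower noncanonical route turns the NFKB2 precursor into p52 to pair with RELB. Several of these genes are known targets of NF-kB themselves, which makes feedback loops, and in liver the pathway is known for its part in the acute-phase response of hepatocytes and in the activation of Kupffer cells. Most of its control is on protein, by degradation, processing and movement into the nucleus, which counts of mRNA do not measure.

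The bases before the start of 5 members are shown, 3 of them members on which the comparisons turn and 2 abundant members beside them. Promoter sequences were from RefSeq on GRCm38.p6, where 7 of the 10 members had an entry and Nfkb1, Relb and Nfkbiz had none. The 250 bases before the start were searched on both strands for the kappaB decamer consensus, the DNA letters that NF-kB pairs bind. These 7 members had 10 windows, since Nfkb2 and Tnfaip3 have several starts, and 7 of the 10 windows held a match, as did 7.25% of all 32851 windows. The windows with a match belonged to Nfkb2, Rel, Nfkbia, Nfkbie and Tnfaip3, and neither Rela nor Nfkbib had one. Below, read 5′ to 3′ on the strand of the gene with matches in capitals, are windows of Nfkb2, Tnfaip3 and Nfkbie, then of Nfkbia and of Rela.
Nfkb2, chr19:46304487-46304736, strand +: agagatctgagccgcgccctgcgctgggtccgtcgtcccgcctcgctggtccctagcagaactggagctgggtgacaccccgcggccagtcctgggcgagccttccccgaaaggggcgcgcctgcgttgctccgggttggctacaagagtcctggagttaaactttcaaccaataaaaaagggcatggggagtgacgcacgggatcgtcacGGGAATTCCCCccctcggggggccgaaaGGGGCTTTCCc
Tnfaip3, chr10:19015411-19015660, strand −: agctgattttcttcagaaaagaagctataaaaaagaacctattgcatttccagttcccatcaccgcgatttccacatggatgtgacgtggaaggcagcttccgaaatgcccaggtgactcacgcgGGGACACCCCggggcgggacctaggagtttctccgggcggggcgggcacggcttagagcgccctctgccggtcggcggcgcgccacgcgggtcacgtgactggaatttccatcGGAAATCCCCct
Nfkbie, chr17:45555450-45555699, strand +: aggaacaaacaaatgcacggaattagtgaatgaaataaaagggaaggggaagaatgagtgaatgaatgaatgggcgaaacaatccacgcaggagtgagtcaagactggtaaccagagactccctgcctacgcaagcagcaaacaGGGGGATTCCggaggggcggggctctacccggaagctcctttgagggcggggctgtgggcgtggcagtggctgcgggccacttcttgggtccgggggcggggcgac
Nfkbia, chr12:55492648-55492897, strand −: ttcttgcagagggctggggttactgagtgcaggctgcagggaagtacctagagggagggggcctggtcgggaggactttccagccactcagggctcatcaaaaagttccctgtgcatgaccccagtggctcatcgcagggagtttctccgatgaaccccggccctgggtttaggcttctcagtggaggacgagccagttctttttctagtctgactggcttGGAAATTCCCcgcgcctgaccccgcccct
Rela, chr19:5637291-5637540, strand +: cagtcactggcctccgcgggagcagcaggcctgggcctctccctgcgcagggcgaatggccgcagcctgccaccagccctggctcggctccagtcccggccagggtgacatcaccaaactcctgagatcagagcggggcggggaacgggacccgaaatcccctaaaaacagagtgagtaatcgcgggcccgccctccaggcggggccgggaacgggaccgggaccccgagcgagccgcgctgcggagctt

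In the Nfkb2 window the first stretch of capitals holds overlapping matches 39 to 29 bases before the start, and the second lies 11 to 2 bases before it. Nfkb2 has 2 further starts in the table, each with 1 match in its window. In Tnfaip3 the matches lay 125 to 116 and 12 to 3 bases before the start, and the window of its other start held none. Nfkbie had 1 match, 106 to 97 bases before the start, and Nfkbia 1 match, 29 to 20 bases before it. A match is a description of the letters and was not measured as a binding site here.

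Total counts per library were between 21801754 and 38065359, and the member with the fewest reads, Nfkbie, still had 38 to 140 reads in each. Values are given as CPM, read counts scaled to a common library size, with the trimmed mean of M-values (TMM) of edgeR. Rps6kb1, the gene of S6K1, lay between 15.2 and 20.8 CPM in old KO, below every old WT library (34.6 to 45.4 CPM). The 30 pairs of libraries within groups all had count differences far above sampling error (chi-square over its degrees of freedom, 18.2 or more). By that measure 2 libraries stood apart from their groups. Pairs with old WT 7 were at 75.5 to 117.6 against 18.2 to 49.5 for the other old WT pairs, and pairs with young WT 6 were at 74.7 to 98.4 against 27.8 to 58.1. Old WT 7 also had the highest hepatocyte marker sum of its group (135727 CPM) and the highest Nfkb2, Rel, Relb, Nfkbiz and Tnfaip3, and young WT 6 had the lowest hepatocyte marker sum (74443 CPM). Without either library the same number of members was called in each comparison as with it. The tissue label was checked on 6 hepatocyte markers, whose summed level was 74443 to 140458 CPM in all libraries.

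Per kilobase of exon, the order of the members was led by Nfkbia, an inhibitor that NF-kB itself induces rapidly, in all 3 groups. In old WT its level was 25.0 ± 2.87 CPM per kb (SD, n = 5), followed by Rela at 13.7 ± 0.896, Nfkbib at 7.44 ± 0.785 and Nfkb1 at 5.53 ± 0.239, and the ranges of these 4 genes did not overlap. Nfkbiz (2.92 ± 0.748 CPM per kb) and Nfkb2 (2.72 ± 0.455) overlapped each other. Below them were Nfkbie (1.48 ± 0.304 CPM per kb), Rel (1.43 ± 0.333), Relb (1.11 ± 0.133) and Tnfaip3 (0.849 ± 0.188), each of which overlapped its neighbour. In young WT the ranges of Nfkbib and Nfkb1 also overlapped, and Tnfaip3 was last in every group.

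**Figure D1:**
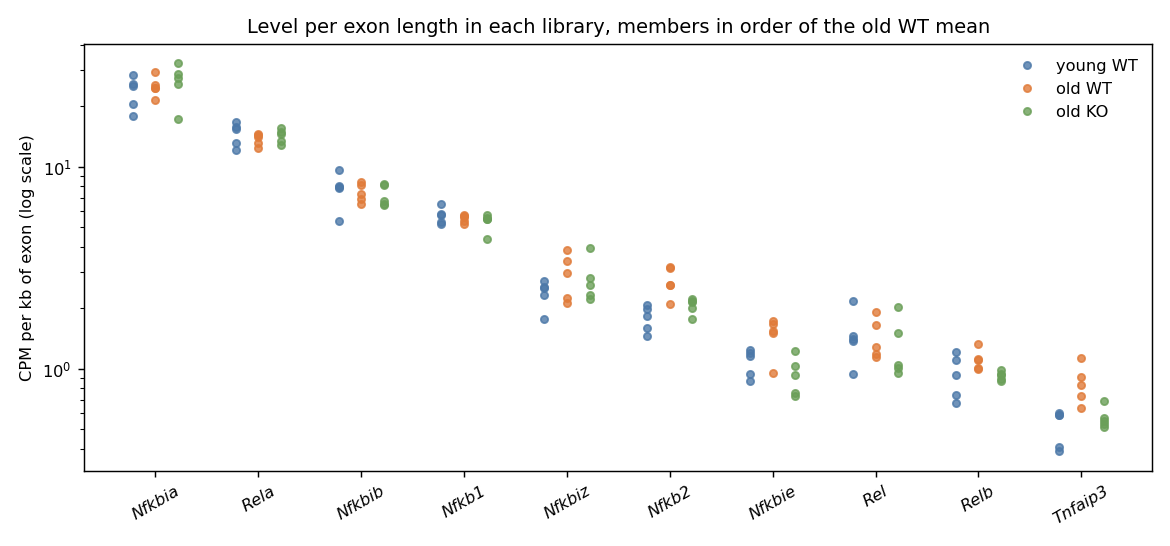
Level of each member per kilobase of exon (CPM per kb, log scale) in each library, with members in the order of their old WT mean and 5 points for each group. Nfkbia, Rela, Nfkbib and Nfkb1 stand above the rest in all groups, and the old WT points of Nfkb2 and Tnfaip3 are all above the young WT points.

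Of the summed level per kilobase of the 5 subunits, Rela made up 59.4% ± 2.83 in young WT, 55.9% ± 3.62 in old WT and 59.6% ± 3.24 in old KO (SD, n = 5). Nfkb1 made up 23.4%, 22.6% and 22.4% in the same order. The share of Nfkb2 was 7.33% ± 1.46 in young WT, 11.1% ± 1.74 in old WT and 8.65% ± 0.981 in old KO. RELA and p50, the classical pair, were therefore the main subunits at the level of mRNA in each group. Relb (3.78% to 4.53%) and Rel (5.44% to 6.08%) had the smallest mean shares.

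With age, Nfkb2 and Tnfaip3 rose and the other 8 members did not pass the test. Nfkb2 encodes the precursor of the noncanonical subunit p52, and Tnfaip3 encodes A20, a ubiquitin-editing enzyme that shuts off signalling to IKK. The 2 called members compare with 18.8% of all 14258 genes tested, and with 9.92% called as higher, so that 2 of 10 is near the share of genes called overall. The most abundant subunits, Rela and Nfkb1, and the most abundant inhibitor, Nfkbia, differed little between young and old WT. The median log2 fold change of the 10 members was 0.17, and 0.01 over all genes tested.

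Nfkb2 (ENSMUSG00000025225; chr19:46379227-46386580 of NCBIM37, plus strand) was counted at 4.76, 5.21, 5.98, 6.51 and 6.77 CPM in the young WT libraries. In old WT it was at 6.84, 8.56, 8.57, 10.3 and 10.4 CPM, and in old KO at 5.81, 6.59, 7.0, 7.11 and 7.30 CPM. All 5 old WT livers were above all 5 young WT livers, the nearest being old WT 10 at 6.84 CPM, and the old KO values lay in the upper range of young WT and just above it. The mean was 5.85 ± 0.850 CPM in young WT and 8.95 ± 1.5 in old WT (SD, n = 5), a log2 fold change of 0.62 (SE 0.131; 95% interval 0.34 to 0.89; edgeR adjusted p = 0.00505). With each of the 15 libraries left out in turn, the log2 fold change was 0.56 to 0.70 and the adjusted p between 0.00253 and 0.0163, with 0.56 without old WT 7 and 0.68 without young WT 6. Exons of Psd, on the opposite strand, share 4 bases with those of Nfkb2, and Psd was at 0.533 to 1.43 CPM.

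Tnfaip3 (ENSMUSG00000019850; chr10:18720716-18735463, minus strand) was at 2.82, 2.97, 4.27, 4.28 and 4.34 CPM in young WT. In old WT it was at 4.62, 5.31, 5.99, 6.59 and 8.17 CPM, and in old KO at 3.70, 3.85, 3.98, 4.12 and 4.99 CPM. The old WT livers again lay above every young WT liver, and 4 of the 5 old KO livers were below every old WT liver. From 3.74 ± 0.769 to 6.14 ± 1.36 CPM, the log2 fold change with age was 0.71 (SE 0.169; 95% interval 0.36 to 1.07; adjusted p = 0.00906). Leaving out single libraries gave 0.60 to 0.81 with an adjusted p of 0.0082 to 0.0274, including 0.60 without old WT 7 and 0.65 without young WT 6. Groups without overlap, old WT above young WT, were found for these 2 members and for 5.78% of all genes tested.

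**Figure D2:**
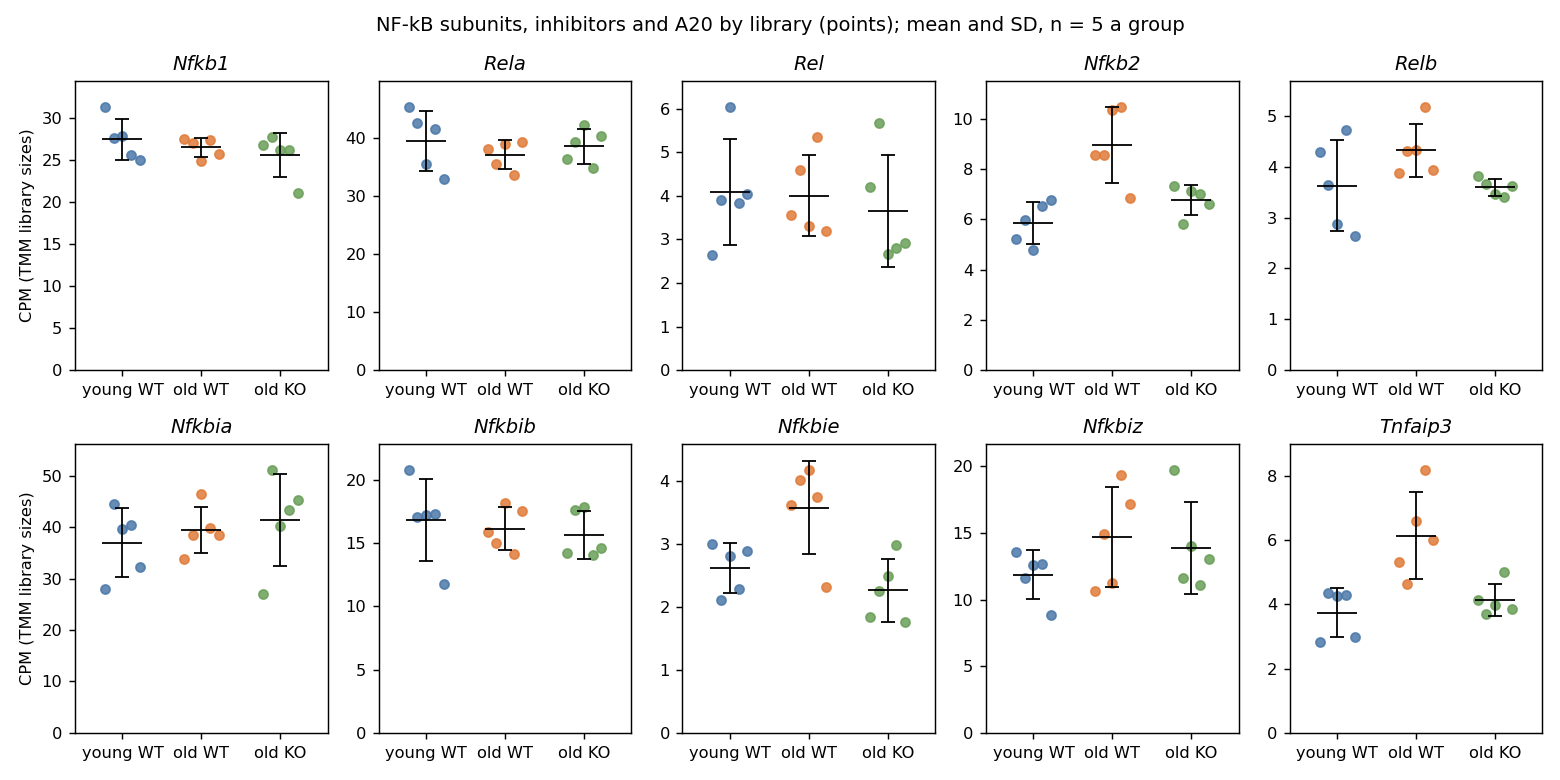
CPM of each member (vertical axes from 0) in young WT, old WT and old KO, with 1 point for each library and the mean and SD of 5. Nfkb2, Relb, Nfkbie, Nfkbiz and Tnfaip3 have their highest mean in old WT, whereas Nfkb1, Rela, Nfkbia and Nfkbib have similar means in the 3 groups.

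Of the other subunits, Relb, the partner of p52, had a log2 fold change with age of 0.24 (95% interval −0.08 to 0.57; adjusted p = 0.279). Rela differed by −0.09 (−0.28 to 0.10), Nfkb1 by −0.05 (−0.22 to 0.12) and Rel, the subunit best known from lymphocytes, by −0.03 (−0.54 to 0.48). The intervals of Rela and Nfkb1 leave no room for a change with age as large as the estimate for Nfkb2, whereas that of Rel is wide. Rel varied from 2.63 to 6.03 CPM among the young WT livers alone.

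Among the inhibitors, Nfkbie, which encodes IkB epsilon, came closest to the threshold. It was at 2.11, 2.29, 2.80, 2.89 and 3.0 CPM in young WT and at 2.32, 3.62, 3.74, 4.02 and 4.17 CPM in old WT. Every old WT liver but old WT 10 (2.32 CPM) was above all young WT livers. The log2 fold change was 0.45 (SE 0.182; 95% interval 0.07 to 0.84; adjusted p = 0.0937), and without old WT 10 it was 0.57 with an adjusted p of 0.0289. Old WT 10 also had the lowest Nfkb2 and Rel of its group. Its marker sums were the lowest of the old WT livers for hepatocytes (85094 CPM), endothelial cells (119.4 CPM) and stellate cells and fibroblasts (178.7 CPM), and those for macrophages (399.6 CPM) and leukocytes in general (171.9 CPM) were within the range of the other 4; their part in its values was not tested.

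Nfkbia, which encodes IkB alpha, was at 36.9 ± 6.71 CPM in young WT and 39.4 ± 4.52 in old WT, a log2 fold change of 0.09 (95% interval −0.23 to 0.42). Nfkbib, which encodes IkB beta, differed by −0.06 (−0.33 to 0.21). Its exons share 42 bases with those of Sirt2 on the opposite strand, which was at 48.0 to 67.1 CPM, and the strand setting of the counting was not stated, so that the counts of Nfkbib are uncertain to that extent. Nfkbiz, the atypical nuclear IkB zeta, which helps switch on secondary inflammatory genes, was at 8.84 to 13.6 CPM in young WT and 10.7 to 19.4 CPM in old WT. Its log2 fold change of 0.30 (−0.09 to 0.69; adjusted p = 0.269) did not pass, and the groups overlapped.

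**Figure D3:**
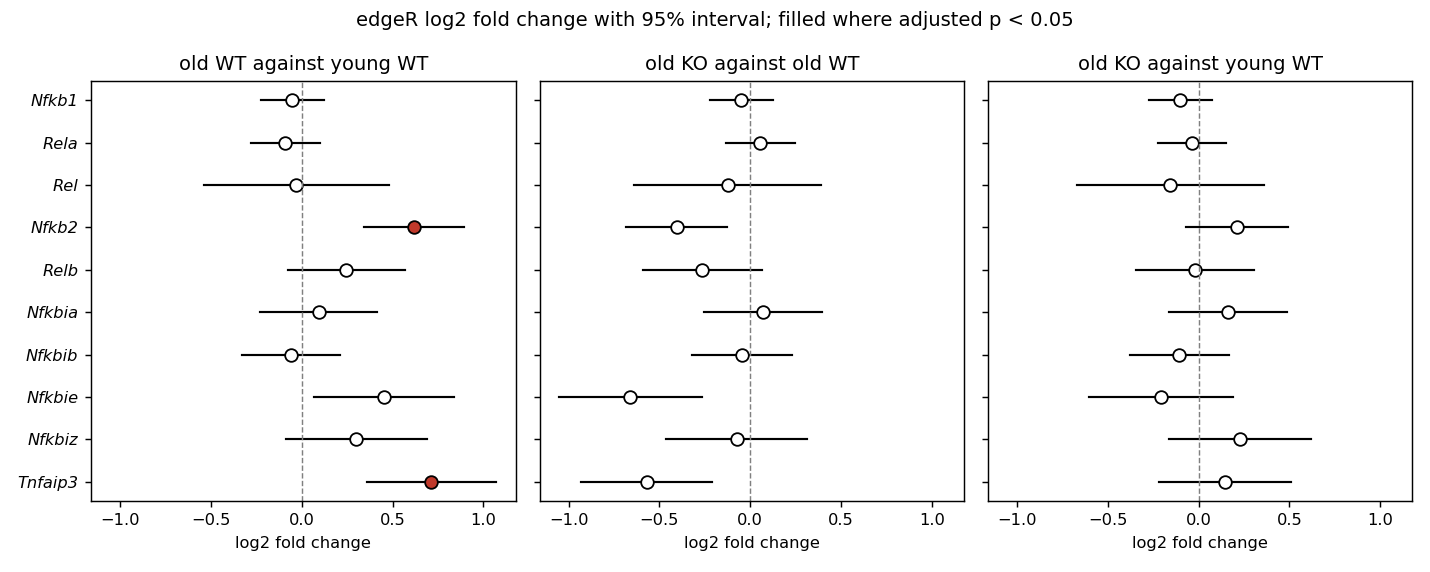
Log2 fold change of each member (horizontal axis) with its 95% interval from the edgeR fit in 3 comparisons, with points filled where the adjusted p was under 0.05. The 2 filled points are Nfkb2 and Tnfaip3 with age, and the intervals of Nfkb2, Nfkbie and Tnfaip3 lie below 0 for old KO against old WT without a filled point.

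Between old KO and old WT, the lowest values relative to old WT were those of Nfkbie, Tnfaip3 and Nfkb2, but no member passed the edgeR test. The background was low as well, with 0.533% of the 14258 genes called. Without adjustment, 3 of the 10 members had p under 0.05, all lower in old KO, against 11.6% of all genes tested in either direction and 6.80% in that direction. DESeq2 called 1 member, Nfkbie, where it called 2.14% of genes, and limma voom called 0. The log2 fold change was below 0 for 8 of the 10 members and for 49.8% of all genes, with medians of −0.10 and 0.00080. This comparison has the old WT libraries in common with that of age, so that a high or low old WT value moves both.

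Nfkbie (ENSMUSG00000023947; chr17:45692665-45700118, plus strand) was at 1.76, 1.83, 2.25, 2.48 and 2.98 CPM in old KO. Of these livers, 3 were below every old WT liver, and the remaining 2 overlapped old WT 10 alone. The mean was 2.26 ± 0.498 CPM against 3.57 ± 0.737 in old WT, a log2 fold change of −0.66 (SE 0.186; 95% interval −1.05 to −0.27; edgeR adjusted p = 0.142). DESeq2 gave the same size with an adjusted p of 0.0415. Leaving out single libraries gave −0.78 to −0.59, with an edgeR adjusted p of 0.0713 to 0.274 (−0.65 without old WT 7).

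Tnfaip3 was at 4.13 ± 0.504 CPM in old KO and 6.14 ± 1.36 in old WT, a log2 fold change of −0.57 (SE 0.169; 95% interval −0.93 to −0.21; edgeR adjusted p = 0.162). Nfkb2 was at 6.76 ± 0.592 and 8.95 ± 1.5 CPM, a log2 fold change of −0.41 (−0.68 to −0.13; edgeR adjusted p = 0.203). Without old WT 7 the values were −0.45 for Tnfaip3 and −0.35 for Nfkb2. The 2 members called with age were among the 3 with the smallest p here, and both comparisons use the same old WT libraries. Neither difference passed once all genes were accounted for.

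Relb (ENSMUSG00000002983; chr7:20191566-20214787, minus strand) differed less in size but without overlap. It was at 3.40, 3.47, 3.62, 3.67 and 3.82 CPM in old KO and at 3.87, 3.93, 4.30, 4.32 and 5.17 CPM in old WT. The highest old KO liver and the lowest old WT liver were nearly equal. The log2 fold change was −0.26 (95% interval −0.59 to 0.06; edgeR adjusted p = 0.537; −0.20 without old WT 7), and an exact permutation test of this gene alone gave p = 0.00794, the smallest that 5 against 5 allows and not adjusted for the other members. A lack of overlap with old KO lower was found in 2.08% of all genes tested.

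The intervals of the remaining 6 members included 0 for genotype, and those of Rela and Nfkb1 were the narrowest. Rela differed by 0.05 on the log2 scale (95% interval −0.14 to 0.24) and Nfkb1 by −0.05 (−0.22 to 0.12). Nfkbib differed by −0.04 (−0.32 to 0.23) and Nfkbia by 0.07 (−0.25 to 0.39), with Nfkbia at 41.4 ± 8.99 CPM in old KO. The values were −0.12 (−0.64 to 0.39) for Rel and −0.08 (−0.47 to 0.31) for Nfkbiz, the widest intervals of the 6.

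Old KO against young WT, in which both age and genotype differ, gave 0 called members by edgeR, DESeq2 and limma voom, and 0 with an unadjusted edgeR p under 0.05. In that comparison edgeR called 23.3% of all genes and DESeq2 21.9%, and 36.8% had an unadjusted p under 0.05. Nfkb2 differed by 0.21 (95% interval −0.07 to 0.49), Tnfaip3 by 0.14 (−0.22 to 0.51), Nfkbie by −0.21 (−0.61 to 0.19) and Relb by −0.02 (−0.35 to 0.31). All 4 intervals include 0, which does not show the levels to be alike.

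Within each library 5 ratios of members were formed from CPM plus 0.1 and compared between the groups by 15 exact permutation tests, of which none passed adjustment. The log2 ratio of Nfkb2 to Nfkb1 had a mean difference of 0.65 with age (exact p = 0.0159, adjusted 0.149). That of Relb to Rela differed by 0.35 with age (exact p = 0.0397, adjusted 0.149) and differed by −0.31 between old KO and old WT (exact p = 0.0317, adjusted 0.149). The ratio of Nfkbie to Nfkbia, a rare against an abundant IkB, differed by −0.68 between old KO and old WT (exact p = 0.0317, adjusted 0.149), whereas Nfkbia to Rela differed by −0.01 (exact p = 0.992). The ratio of Rel to Rela differed by 0.07 with age and by −0.22 with genotype (exact p = 0.881 and 0.452). With 1 added to CPM in place of 0.1, the difference of Nfkbie to Nfkbia was −0.53 and that of Nfkb2 to Nfkb1 was 0.58.

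Leukocytes also carry NF-kB mRNA. Between old KO and old WT, all 8 pan-leukocyte markers had a negative log2 fold change (1 called by edgeR, 4 by DESeq2, 0 by limma voom), and their CPM summed over the list ranged from 124.2 to 181.5 (young WT), from 150.0 to 191.7 (old WT) and from 112.1 to 155.2 (old KO). All 10 macrophage and Kupffer cell markers also had a negative log2 fold change (5 called by edgeR, 7 by DESeq2, 1 by limma voom). Their summed levels were 185.3 to 414.6, 236.3 to 585.4 and 144.0 to 216.5 CPM in the same order. Of all genes, edgeR called 0.533% and DESeq2 2.14% between old KO and old WT. The median log2 fold changes of the 2 lists in that comparison were −0.82 and −1.16, and 0.00080 over all genes tested. For old KO against young WT the medians were −0.23 and −0.81, and −0.01 over all genes tested. With age, 7 of the 8 pan-leukocyte markers had a positive log2 fold change (2 called by edgeR, 3 by DESeq2, 4 by limma voom). So did 8 of the 10 macrophage and Kupffer cell markers (1 called by edgeR, 3 by DESeq2, 3 by limma voom). All called markers were higher, and edgeR called 18.8% of all genes in either direction. The median log2 fold changes of the 2 lists with age were 0.55 and 0.33, and 0.01 over all genes tested. The summed levels of young and old WT overlapped. In whole liver, fewer cells of a type and less RNA per cell cannot be told apart, and the part of these cells in the values of Nfkb2, Nfkbie, Relb and Tnfaip3 was not tested.

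Markers of T and NK cells, B cells and neutrophils were low throughout, and no marker was at 0 in every library. The 8 T and NK cell markers summed to 2.47 to 6.12 CPM (young WT), 4.2 to 12.1 CPM (old WT) and 2.53 to 7.23 CPM (old KO). With age 3 of them were called as higher by edgeR, 3 by DESeq2 and 0 by limma voom. As background for the age counts of these lists, edgeR called 18.8% of all genes in either direction and 9.92% as higher. The 4 B cell markers summed to 2.41 to 5.57, 3.94 to 12.6 and 3.17 to 7.19 CPM, with 1 called as higher with age by edgeR, 1 by DESeq2 and 0 by limma voom. The 5 neutrophil markers summed to 3.82 to 6.75, 4.29 to 14.3 and 2.27 to 9.66 CPM, with 0 of the 3 tested called. Of the 2 below the filter, Ly6g was under 10 counts in every library, and Retnlg had 38, 71 and 22 counts summed over each group (exact permutation p = 0.0159 for old KO against old WT, not adjusted). Endothelial markers summed to 119.4 to 287.7 CPM over all libraries, with 2 of 6 called by edgeR as lower with age. Stellate cell and fibroblast markers summed to 178.7 to 335.0 CPM, with 1 of 5 called as higher with age by edgeR, 2 by DESeq2 and 1 by limma voom. Of the 6 hepatocyte markers, 2 were called by edgeR as lower with age. Between old KO and old WT, edgeR, DESeq2 and limma voom called 0 markers of these 6 lists. All tested T and NK cell, B cell and neutrophil markers had a negative log2 fold change (medians −0.72, −0.63 and −0.76). All 6 hepatocyte markers had a positive one (median 0.32). It was negative for 5 of 6 endothelial markers (median −0.10), for 2 of 5 stellate cell and fibroblast markers (median 0.02) and for 49.8% of all genes. An unadjusted edgeR p under 0.05 was found for 2 T and NK cell, 1 B cell and 1 neutrophil marker, against 11.6% of all genes tested.

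On the list of the IKK complex and the signalling around it, 7 of 34 genes were called with age, 5 higher and 2 lower, a share close to the background of 18.8%. Map3k14 encodes NIK, the kinase that starts the processing of the NFKB2 precursor. It rose from 2.97 ± 0.322 CPM in young WT to 6.02 ± 0.677 in old WT (SD, n = 5), with no overlap and a log2 fold change of 1.01 (SE 0.126; adjusted p = 0.000207), and was at 4.92 ± 0.688 CPM in old KO. Ikbkb, which encodes IKK beta, rose by 0.32 (SE 0.071; adjusted p = 0.00612) and Birc3, a ubiquitin ligase of the receptor complexes, by 0.34 (SE 0.088; adjusted p = 0.0155), both also without overlap.

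The adaptor gene Ticam1 fell by 0.50 on the log2 scale (adjusted p = 0.0406) and the kinase gene Tbk1 fell by 0.24 (adjusted p = 0.0479). Both calls were fragile, since with single libraries left out the adjusted p ranged from 0.0234 to 0.112 for Ticam1, under 0.05 in 8 of 15 cases, and from 0.0247 to 0.119 for Tbk1, under 0.05 in 2 of 15. Between old KO and old WT edgeR called 0 of the 34 genes, with an unadjusted p under 0.05 for 6, DESeq2 called 1 and limma voom 0. Of all genes, 11.6% had an unadjusted edgeR p under 0.05, and DESeq2 called 2.14%.

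Of 19 further modulators, which include the other atypical IkB genes and partners of A20, 18 passed the filter. With age 2 of the 18 were called, both lower, against 18.8% of all genes tested in either direction. They were Itch, a ubiquitin ligase that works with A20 (log2 fold change −0.26, edgeR adjusted p = 0.0222), and Tax1bp1, an adaptor of A20 (−0.29, edgeR adjusted p = 0.023). The adjusted p of Itch was 0.0512 to 0.0716 when young WT 3, old WT 4 or old WT 5 was left out, and that of Tax1bp1 was 0.0512 to 0.0618 when any of these or old WT 1 was. Between old KO and old WT, edgeR, DESeq2 and limma voom called 0 of them. An unadjusted edgeR p under 0.05 was found for 2 of the 18, against 11.6% of all genes tested.

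Downstream, 24 of 35 genes known as NF-kB targets passed the filter, and 9 were called with age, all higher. Their median log2 fold change was 0.41, and 0.01 over all genes tested. Of all genes tested, edgeR called 18.8% with age in either direction and 9.92% as higher. The chemokine genes had the smallest p. Cxcl16 rose from 5.52 ± 1.03 to 9.34 ± 0.556 CPM (log2 fold change 0.76; adjusted p = 0.000984), Cxcl1 from 0.631 ± 0.322 to 3.5 ± 1.1 CPM (2.50; adjusted p = 0.00176) and Ccl5 from 0.955 ± 0.429 to 3.81 ± 1.69 CPM (2.01; adjusted p = 0.00262). None of these 3 overlapped between young and old WT, and 5.78% of all genes tested were higher in old WT without overlap. Genes that pass a filter through the group in which they are high tend to differ, so the count is given over the list as chosen and was not read against other lists.

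Between old KO and old WT, edgeR called 0 of the 24 tested target genes, 7 had an unadjusted p under 0.05, DESeq2 called 3 and limma voom 0. Of all genes, 11.6% had an unadjusted edgeR p under 0.05, and DESeq2 called 2.14%. The median log2 fold change of the 24 genes was −0.36, and 0.00080 over all genes. In old KO, Cxcl1 was at 3.87 ± 2.34 CPM, near its old WT level, Ccl5 was at 1.56 ± 0.685 and Cxcl16 at 7.93 ± 0.766 CPM.

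**Figure D4:**
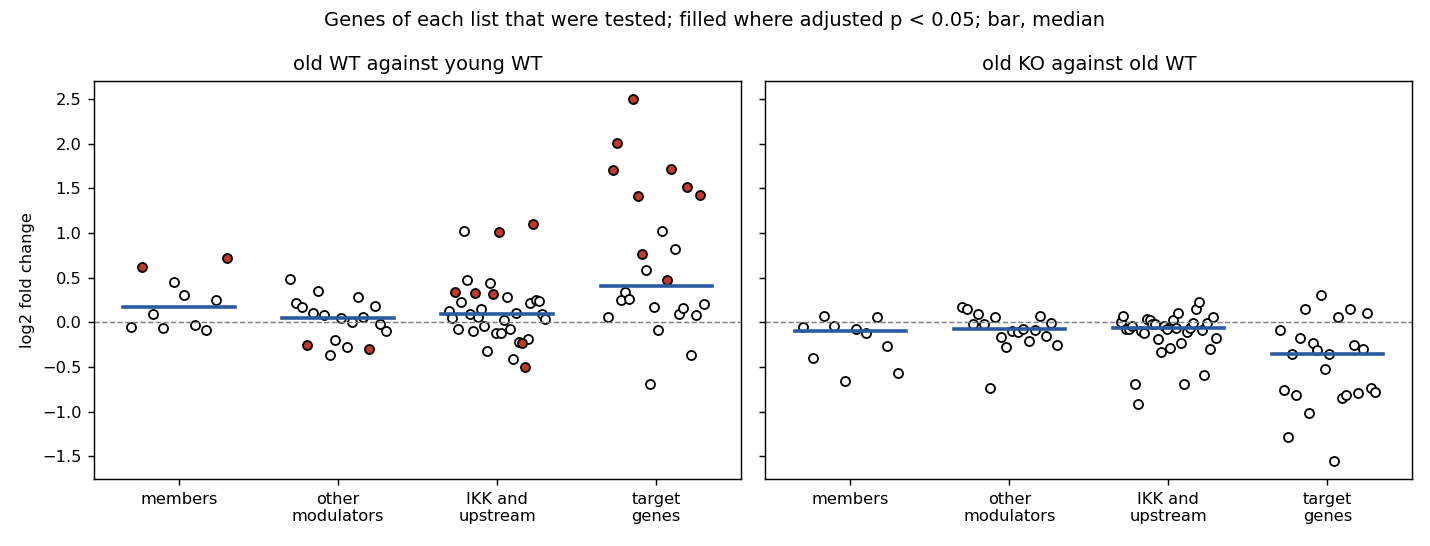
Log2 fold change (vertical axis) of each tested gene of the members and of the 3 other lists with age (left) and between old KO and old WT (right), filled where the edgeR adjusted p was under 0.05, with a bar at the median. With age 2 members, 2 modulators, 7 upstream genes and 9 target genes are filled, and between old KO and old WT there is no filled point.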

How the data were processed

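The 15 libraries were made from poly(A) RNA of whole liver, 1 mouse each. The authors mapped single-end reads of stranded libraries to mm9 with TopHat2 (2.0.11 in the submitters' processing notes) and used HTSeq for counting. What they deposited are raw counts for each gene, neither normalized nor pooled. The annotation and strand setting were not given in the sources used here. Groups and replicate numbers were read from sample titles. Symbols, positions and exon lengths were from GENCODE M1 on NCBIM37, the build of mm9, with positions for 37205 of 37991 identifiers, and all 150 list entries were matched.

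Counts were filtered (filterByExpr, 14258 genes), TMM-scaled and fitted to all libraries with the quasi-likelihood test of edgeR 4.0.16 (R 4.3.3; threshold 0.05, Benjamini-Hochberg over all genes tested; common biological coefficient of variation 0.189). DESeq2 1.42.0, limma 3.58.1 (voom), other scalings and filters, the libraries of each comparison alone, a replicate block and leaving out each library were alternatives. On simulated counts for old KO against old WT (14126 genes), 50% of genes changed 1.5-fold, 62.7% of those changed 2-fold and 98.5% of those changed 4-fold were recovered. Exact 2-sided permutation tests used log2 of CPM plus 0.1, with 252 assignments. No interval covers more than the spread between these mice.

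Named were the 10 members, every gene of the 3 other NF-kB lists called by edgeR for genotype (there were none) and, for age, up to 3 per direction and list by adjusted p. The members and lists were chosen with earlier results of these data known. Lists were written from general knowledge. Of the marker lists, hepatocyte, pan-leukocyte, macrophage and Kupffer cell, neutrophil, T and NK cell, B cell, endothelial, and stellate cell and fibroblast genes were used.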

Additional observations from a re-analysis of the deposited data

Results flagged for a closer look

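The level of Nfkb1 in old KO 6 stood apart from its group. It was at 21.1 CPM, whereas the other old KO livers were between 26.2 and 27.7 CPM, and its gap to the nearest of them was 0.779 of the whole range, above the critical value of 0.71 for 5 samples. Chance alone puts about 1 in 20 groups past this value, and 1 of the 30 groups of member values was. Without old KO 6, the log2 fold change of Nfkb1 between old KO and old WT was 0.013 in place of −0.049.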

How the results depend on the processing

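The calls of Nfkb2 and Tnfaip3 with age held in every alternative but the replicate block, and no alternative other than DESeq2 called a member between old KO and old WT. With the block, 899 genes were called with age (2685 without it) and 0 members, with Nfkb2 at 0.52 (adjusted p = 0.082) and Tnfaip3 at 0.48 (adjusted p = 0.191), and 6 genes with genotype. Of the other genes named for age, Ikbkb (adjusted p = 0.0778), Birc3 (0.0998), Cxcl1 (1.70 on the log2 scale; 0.136), Itch (0.151), Tax1bp1 (0.114) and Tbk1 (0.263) also lost their call with the block, as did Itch (0.055) and Tbk1 (0.104) without a filter on low counts and Tbk1 (0.0571) in the libraries of the comparison alone. The replicate numbers did not pair the samples: same-numbered libraries deviated from their group means with correlations of −0.153 to 0.077, and no library correlated best with its own number. For genotype, 76 genes were called by edgeR, 309 by DESeq2 and 23 by limma voom, and DESeq2 called 1 member. With single libraries left out, 9 to 108 genes were called for genotype and 1748 to 3284 for age, lowest without young WT 1, and 2 to 3 members for age. Genotype counts fell past 1.5 times without young WT 4 (41), old WT 1 (10), 4 (9), 7 (37) or 10 (42), or old KO 2 (13), 4 (14), 5 (17) or 6 (13); the cause was not tested.

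Sign changed only in log2 values that were not called. With age, Rel was at 0.00043 under limma voom and 0.33 with the block. For genotype with the block, Nfkbia was at −0.057 and Nfkbiz at 0.26, and for old KO against young WT Rel was at 0.085. Leaving out single libraries gave, with age, −0.16 to 0.16 for Rel, −0.16 to 0.027 for Nfkbib and −0.12 to 0.26 for the ratio of Rel to Rela. For genotype it gave −0.085 to 0.013 for Nfkb1, −0.024 to 0.19 for Nfkbia, −0.097 to 0.00031 for Nfkbib, −0.24 to 0.038 for Nfkbiz and −0.083 to 0.12 for the ratio of Nfkbia to Rela. For old KO against young WT it gave −0.37 to 0.031 for Rel, −0.094 to 0.015 for Rela, −0.11 to 0.087 for Relb and −0.34 to 0.041 for the ratio of Rel to Rela. Of all recomputed values, 1243 kept their direction and side of the threshold.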

Other observations

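Of the 35 target genes, 11 were below the filter and have no value in the main edgeR fit. As counts summed over the 5 libraries of a group, Nos2, the inducible nitric oxide synthase, had 25 counts in old WT and 6 in old KO, Ccl3 had 68 and 26, Ccl4 had 59 and 24, and Il6 had 12 and 1. The exact 2-sided permutation p of these genes, not adjusted over the 11, was 0.0238, 0.0238, 0.0159 and 0.0476. They were picked for mention after their values were seen. DESeq2, which was run without that filter, called none of these genes between old KO and old WT. It called Ccl3 and Ccl4 as higher with age. Cxcl2, with 34 and 29 counts, had an exact permutation p of 1.0 in the same comparison.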
